A study of Rattus norvegicus with 12 samples.

Results

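Hepatocytes isolated from rat livers 16 h after the donor's death were set against hepatocytes from 3 other groups of donors, to find transcripts whose level at 16 h lay beyond every other group. The 16 h group was 3 of 12 arrays, 1 array per animal. The other 9 arrays were 3 heart-beating donors, 3 donors dead for 4 h and 3 donors dead for 30 h. Every animal was of the strain given as Fischer 334, no allele or drug treatment is named for any group, and the sources used here give no sex or age. The cells were freed from liver with collagenase in 2 steps and went into RNA extraction without culture. Each array thus reads the cells recovered after the perfusion. The hour of day of each isolation is not stated in those sources.

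The clock of liver cells is a feedback loop of transcription factors. BMAL1, paired with CLOCK or NPAS2, binds E-box elements and raises the genes of the PER and CRY proteins, of the nuclear receptors REV-ERB alpha and beta (Nr1d1 and Nr1d2), and of the output factors DBP and TEF. PER and CRY then silence the activators, and the REV-ERB receptors repress Bmal1 and Npas2, so that repressors and activators peak at opposite times of day. Through DBP, TEF and the REV-ERB receptors the loop times much of the lipid, bile acid and drug metabolism of the liver.

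Signals were log2 values of 20826 probe sets that carried 1 gene symbol each, for 14217 genes. The number of arrays limits the precision, and n is 3 animals for every group mean below. A pair of questions was put to each probe set with limma. The first was whether the 16 h mean differed from the mean of the other 3 group means. The second was whether it differed, in the same direction, from each of the other groups separately. For the second question the largest of the 3 p-values was kept and adjusted by Benjamini-Hochberg over all probe sets, and a probe set with an adjusted p under 0.05 is said here to stand apart. Groups were separate animals.

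Against the mean of the other groups, 883 probe sets (4.24%) were higher at 16 h and 275 (1.32%) were lower, which together came from 1056 genes. A difference of at least 2-fold was seen in 43 of the higher and 15 of the lower. This first question mixes several shapes: in 126 of the 1158 called probe sets the 16 h mean lay between the other group means. Where it lay outside them, 30 h was the nearest group in 526, heart-beating donors in 339 and 4 h in 167. All 3 arrays at 16 h lay beyond all 9 others in 574 of the 1158, and in 945 of all 20826 probe sets. The calls were made on these same values. Of the 1158, 76.3% were higher, and after a further quantile normalization 63.0% of the calls were. The count was 255 without 16 h animal 1, 329 without 16 h animal 2, 745 without heart-beating donor 3 and 1778 without 30 h animal 2.

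The second question left 39 probe sets of 36 genes (0.187%). Of these, 32 probe sets of 30 genes (0.154%) stood above every other group and 7 probe sets of 6 genes (0.0336%) stood below. In each of the 39 the 3 arrays at 16 h lay beyond the 9 others, as they did in 945 of all 20826 probe sets. The 39 were picked on these same values. The distance to the nearest group was at least 2-fold in 15 of them, 12 higher and 3 lower. Adjusted p for standing apart ranged from 1.52e-07 to 0.043 by limma. At an unadjusted p under 0.05 there were 796 such probe sets, 590 higher and 206 lower.

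The same test was run with each other group in the place of 16 h. Heart-beating donors had 0 probe sets apart by limma (0%, with 183 at an unadjusted p under 0.05). At 4 h there were 2 (0.0096%), both of Scd2, a fatty acid desaturase. At 30 h there were 1162 (5.58%), of which 393 were higher and 769 lower. With the Gapdh difference between its 3' and 5' ends as a covariate the 30 h count by limma was 0, with 1505 at an unadjusted p under 0.05. Of the 39 probe sets apart at 16 h, 0 differed between 4 h and heart-beating donors by limma, beside 6 of all 20826. Between 30 h and heart-beating donors 9 of the 39 differed, 4 of them in the direction opposite to 16 h. Over all 20826 probe sets 4865 differed between these groups. In 2146 of those the direction was opposite to that of 16 h against the mean of the other groups, called or not. That mean holds the 30 h group, so a change at 30 h alone can give the opposite direction. The 39 were thus near the share over all probe sets in both counts.

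**Figure D1:**
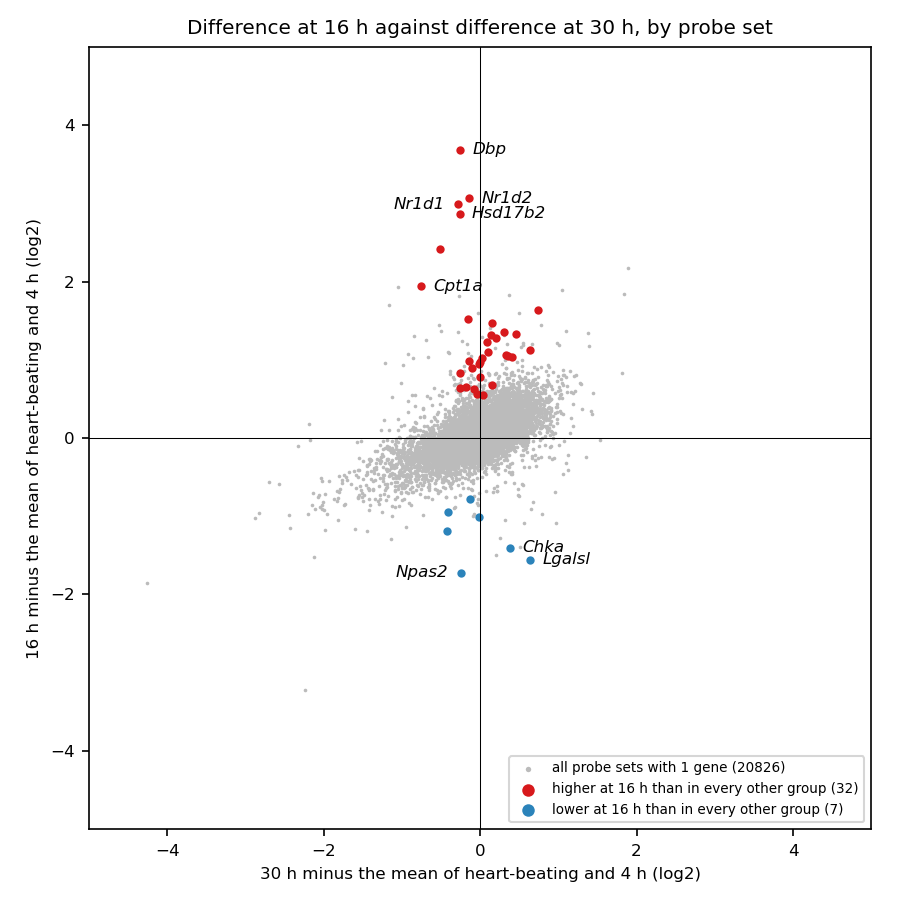
Each grey point is 1 of 20826 probe sets, with its log2 difference at 30 h (x axis) and at 16 h (y axis) from the mean of the heart-beating and 4 h groups, so both axes share 6 arrays. The 32 red probe sets stood above every other group at 16 h and the 7 blue ones below. Among these coloured points Dbp lies at the top and Npas2 and Lgalsl at the bottom.

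**Figure D2:**
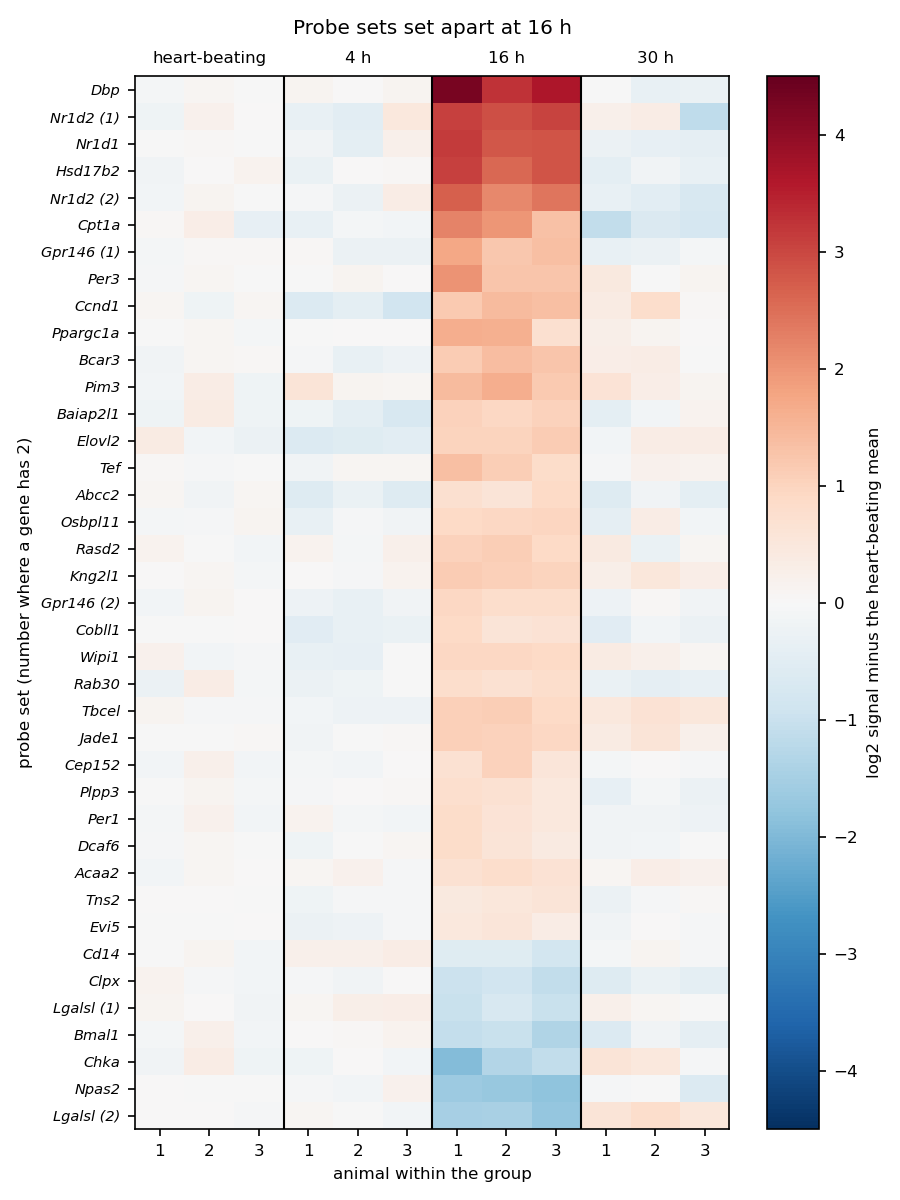
The 39 probe sets that stood apart at 16 h (rows, by their difference from the other groups) in the 12 animals (columns, by group), coloured by the log2 signal minus the mean of heart-beating donors. The 3 columns at 16 h are red in the upper 32 rows and blue in the lower 7, and 30 h is on the blue side for Cpt1a and on the red side for the brighter Lgalsl probe set.

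RNA integrity was read from control probe sets at both ends of a transcript. The 3' minus 5' log2 difference of Gapdh was 0.39 ± 0.08 (SD), 0.38 ± 0.10, 1.05 ± 0.20 and 1.97 ± 0.29, in the order heart-beating, 4 h, 16 h and 30 h. That of Actb was 1.85 ± 0.05, 1.71 ± 0.15, 2.21 ± 0.33 and 2.87 ± 0.11. The 16 h mean lay between the early groups and 30 h in both, while for Actb 16 h animal 1 (1.89) overlapped heart-beating donor 2 (1.90). The difference of 16 h from the other 9 arrays was 0.14 for Gapdh (exact two-sided permutation p = 0.759) and 0.07 for Actb (exact p = 0.795), where the smallest p that 3 against 9 arrays allow is 0.00455. The 9 arrays join groups on both sides of 16 h, so this test cannot tell whether 16 h differed from the early groups. For Gapdh the 16 h animals (0.85 to 1.25) were above every early animal (at most 0.46). With the Gapdh difference as a covariate in the fit, all 39 probe sets kept the direction of their differences from all 3 groups, and 5 still stood apart. Their median distance to the nearest group went from 0.90 to 0.66 on the log2 scale and its median SE from 0.12 to 0.23. The 5 were of Dbp, Nr1d1, Nr1d2, Hsd17b2 and Lgalsl.

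**Figure D3:**
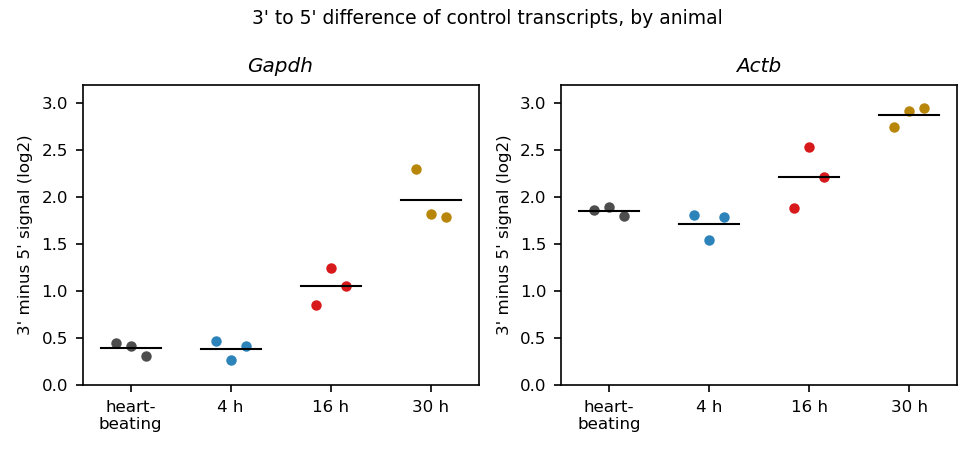
The 3' minus 5' log2 difference of the Gapdh and Actb control probe sets in each animal (points) with the group mean (line). The 16 h points lie above most early points and below every 30 h point for both transcripts.

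Among the genes that stood apart, the 3 largest rises were those of the clock genes Dbp, Nr1d2 and Nr1d1. Dbp, whose protein drives rhythmic output genes of the liver, had log2 signals of 9.44, 8.41 and 8.81 at 16 h. Heart-beating donors read 5.08, 5.26 and 5.13, the 4 h animals 5.28, 5.19 and 5.28, and the 30 h animals 5.16, 4.82 and 4.84. Every 16 h animal exceeded every other animal by more than 3 log2 units, and the 9 other animals lay between 4.82 and 5.28. The group means were 5.16 ± 0.09, 5.25 ± 0.05, 8.89 ± 0.52 and 4.94 ± 0.19 (SD), in the order heart-beating, 4 h, 16 h and 30 h. Dbp was 13.7-fold higher than in the other groups (log2 difference 3.77, SE 0.15) and 12.5-fold higher than in the nearest, 4 h (adjusted p for standing apart 4.04e-07).

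Tef, a PAR domain factor of the same family as Dbp, read 9.21, 8.96 and 8.69 at 16 h against 7.69 to 8.04 in the 9 other animals. Its group means were 7.85 ± 0.05, 7.85 ± 0.14, 8.95 ± 0.26 and 7.94 ± 0.13 (SD). It was higher by 1.07 (SE 0.10) than in the other groups (adjusted p for standing apart 0.00154). A dimmer probe set of Tef was higher by 0.76 against the mean of the other groups (adjusted p = 0.00261) without standing apart (adjusted p = 0.0902), and the dimmest was not called. Hlf, the other member of this family, gave 4 probe sets between -0.02 and 0.16, none of them called.

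The repressors Nr1d1 and Nr1d2 followed Dbp. Nr1d1 read 8.55, 8.22 and 8.24 at 16 h, against 5.39, 5.46 and 5.38 among heart-beating donors, 5.24, 4.97 and 5.63 in the 4 h animals and 5.13, 5.05 and 5.0 in the 30 h animals. The 16 h animals were the highest and lay close together. Nr1d1 was higher by 3.09 (SE 0.11) than in the other groups, an 8.5-fold difference, and its adjusted p for standing apart was 1.52e-07. The brighter probe set of Nr1d2 read 8.98, 8.79 and 8.94 at 16 h and between 4.74 and 6.37 in the 9 others, a difference of 3.11 (SE 0.27, adjusted p for standing apart 0.000958). A second read 7.98, 7.47 and 7.72 against 4.58 to 5.62, a difference of 2.59 (SE 0.13, adjusted p 3.57e-06). The remaining Nr1d2 probe set, with means from 3.98 to 4.05, was not called.

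Of the period genes, whose proteins close the negative arm of the loop, Per3 and Per1 stood above the other groups. Per3 read 6.90, 6.14 and 6.12 at 16 h and 4.83 to 5.31 elsewhere, a difference of 1.42 (SE 0.14, adjusted p for standing apart 0.00447). Per1 read 8.25, 8.02 and 7.90 at 16 h and 7.19 to 7.60 elsewhere, a difference of 0.71 (SE 0.09, adjusted p 0.0275). In both genes the 16 h animals did not overlap the others. Per2 was not called by either of its probe sets (differences of -0.13 and 0.20), and the brighter signal of the second was at 30 h, with a mean of 8.12 against 7.55 at 16 h.

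Activators of the loop lay on the other side. Npas2, a partner of BMAL1, read 6.70, 6.64 and 6.53 at 16 h. It read 8.36, 8.32 and 8.33 among heart-beating donors, 8.30, 8.23 and 8.54 in the 4 h animals and 8.28, 8.31 and 7.71 in the 30 h animals. The highest 16 h animal was 1.01 log2 units below the lowest of the others. Npas2 fell by 1.64 on the log2 scale against the other groups (SE 0.11), 3.12-fold, with an adjusted p for standing apart of 0.000188.

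Bmal1 read 6.24, 6.32 and 5.94 at 16 h, 7.22, 7.52 and 7.19 among heart-beating donors, 7.33, 7.38 and 7.45 in the 4 h animals and 6.71, 7.16 and 6.90 in the 30 h animals. The groups did not overlap at 16 h, and 30 h lay nearest. The difference was -1.04 (SE 0.10, adjusted p for standing apart 0.0284), and 30 h was itself below heart-beating donors by 0.39 (adjusted p = 0.04). Clock (-0.49, SE 0.07, adjusted p = 0.00297) and Rora (-0.43, SE 0.11, adjusted p = 0.0391), which encodes an activator of Bmal1, were lower than the mean of the other groups by 1 probe set each and did not stand apart. Cry1, a repressor that peaks late in the cycle, read 6.38, 5.60 and 5.89 at 16 h, against group means of 6.98 (heart-beating), 7.10 (4 h) and 8.0 (30 h). It was lower by 1.40 (SE 0.19, adjusted p = 0.00126) and missed the threshold for standing apart (adjusted p = 0.144).

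Over the whole clock list, 42 probe sets of 21 genes were measured. Against the mean of the other groups 8 of the 42 were higher (19%), 5 lower (11.9%) and 29 not called, beside 4.24% and 1.32% over all probe sets. Of the 42, 9 stood apart, 7 higher and 2 lower, beside 0.187%. The median difference of the list was 0.05, against -0.01 over all probe sets, with rises and falls both present. The 29 not called ranged from -0.57, in Nfil3, a repressor of the DBP family's targets (adjusted p = 0.0758), to 0.33, in Csnk1d, a kinase of PER proteins (adjusted p = 0.0511).

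**Figure D4:**
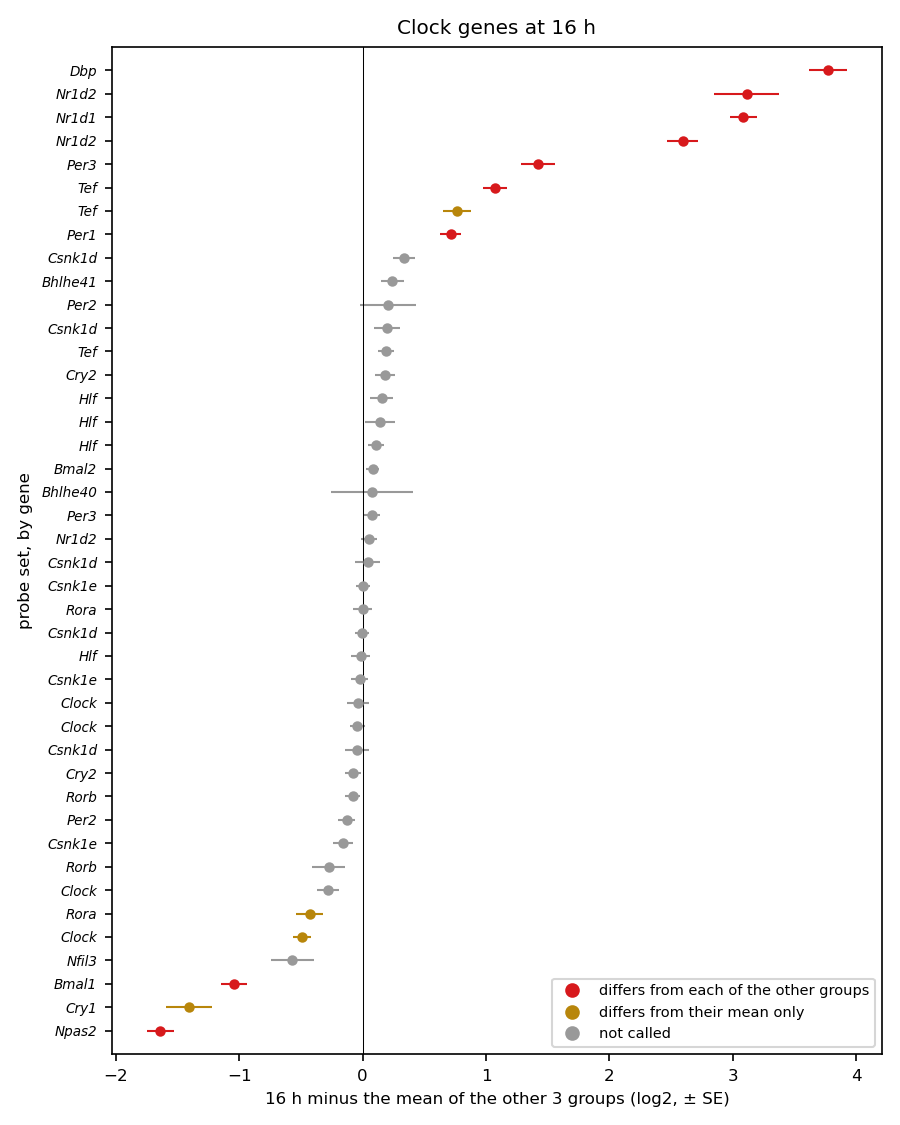
The 42 probe sets of the clock list, by their log2 difference between 16 h and the mean of the other 3 groups (points) with its SE (bars). Red marks the 9 that differed from each of the other groups, gold the 4 that differed from their mean only, and grey the 29 that were not called; Dbp, Nr1d2, Nr1d1, Per3, Tef and Per1 lie on the right and Npas2, Cry1 and Bmal1 on the left.

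Promoter letters are shown for 3 clock genes that stood apart, Nr1d1 and Tef above and Bmal1 below the other groups. These windows were chosen because a search found an element of the loop in them, and the other clock genes that stood apart had none. RefSeq promoter windows (build GRCr8, 250 bases before to 50 bases after the annotated start) were matched by gene ID for 30 of the 36 genes, in 34 windows. Capitals mark the E-box CACGTG in Nr1d1 and Tef, and the REV-ERB and ROR element TAGGTCA in Bmal1. The Nr1d1 window lies at chr10:84229405-84229704 on the minus strand and is 1 of 2 annotated starts of the gene, the Tef window at chr7:115206577-115206876 on the plus strand, and the Bmal1 window at chr1:176766078-176766377 on the plus strand.
Nr1d1: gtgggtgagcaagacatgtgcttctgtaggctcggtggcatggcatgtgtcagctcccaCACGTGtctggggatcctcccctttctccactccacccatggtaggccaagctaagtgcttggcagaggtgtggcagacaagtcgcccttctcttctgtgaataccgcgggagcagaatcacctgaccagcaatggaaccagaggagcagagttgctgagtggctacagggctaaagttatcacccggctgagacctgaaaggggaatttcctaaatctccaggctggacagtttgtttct
Tef: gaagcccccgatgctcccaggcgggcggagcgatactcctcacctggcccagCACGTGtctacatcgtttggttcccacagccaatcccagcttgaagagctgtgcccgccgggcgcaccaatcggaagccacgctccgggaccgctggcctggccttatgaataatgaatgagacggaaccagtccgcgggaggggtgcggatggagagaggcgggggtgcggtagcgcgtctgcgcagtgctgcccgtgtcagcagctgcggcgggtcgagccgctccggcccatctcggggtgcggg
Bmal1: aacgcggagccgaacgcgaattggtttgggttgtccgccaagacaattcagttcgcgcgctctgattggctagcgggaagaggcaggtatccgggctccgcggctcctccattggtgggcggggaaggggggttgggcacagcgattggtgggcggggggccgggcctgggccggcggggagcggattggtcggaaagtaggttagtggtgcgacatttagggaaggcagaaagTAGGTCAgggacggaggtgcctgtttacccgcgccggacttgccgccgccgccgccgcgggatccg

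Each motif was searched on both strands. CACGTG was in 2148 of 33469 promoter windows of the rat (6.42%), and in 5 of the 30 windows of genes that were higher at 16 h (Bcar3, Tef, Tbcel, Nr1d1 and Gpr146) and 0 of 4 of those that were lower. TAGGTCA was in 2.63% of all windows, and here in 1 window of a higher gene, Abcc2, and 1 of a lower gene, Bmal1. The D-box TTANGTAA was in 2.24% of all windows and in that of Cd14, and the cyclic AMP element TGACGTCA was in 1.83% and in that of Ppargc1a. Dbp, Nr1d2, Per3, Per1 and Npas2 had none of the 4 motifs in these windows. A match is a description of the letters and not a measured site.

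Liver genes with a known daily rhythm outside the loop were taken as a second list, of 35 probe sets for 23 genes. Against the mean of the other groups 5 were higher (14.3%, beside 4.24% over all probe sets), 2 lower (5.71%, beside 1.32%) and 28 not called, and 1 stood apart, Hsd17b2. Hsd17b2 encodes an enzyme that oxidizes estradiol and testosterone to weaker steroids. It read 12.59, 12.12 and 12.37 at 16 h, against 9.36, 9.55 and 9.68 among heart-beating donors, 9.23, 9.55 and 9.57 in the 4 h animals and 9.09, 9.38 and 9.21 in the 30 h animals. The 16 h animals were the highest by more than 2 log2 units and the other groups overlapped. The difference was 2.96 (SE 0.11), 7.77-fold, with an adjusted p for standing apart of 1.52e-07.

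The other called members of that list differed from the mean of the other groups without standing apart. Cyp7a1, the rate-limiting enzyme of bile acid synthesis, read 11.84, 12.02 and 11.70 at 16 h and 9.29 to 11.44 elsewhere, a rise of 1.55 (SE 0.28, adjusted p = 0.00706) with 30 h at a mean of 11.01. Usp2, a ubiquitin protease, was higher by 1.43 (SE 0.28, adjusted p = 0.0112) and Por, the electron donor of cytochromes P450, by 1.08 (SE 0.22, adjusted p = 0.0159). In these 3 genes the 16 h animals were above all others, but the spread among the others was wide. Cdkn1a, a cell cycle inhibitor, was lower by 0.96 (SE 0.19, adjusted p = 0.014), and Ppard, a nuclear receptor for fatty acids, by 0.72 (SE 0.12, adjusted p = 0.00429).

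Among genes of fat burning, Cpt1a stood apart. Its enzyme admits long fatty acids to mitochondrial oxidation. It read 10.61, 10.36 and 9.70 at 16 h, 8.41, 8.69 and 8.02 among heart-beating donors, 8.05, 8.28 and 8.26 in the 4 h animals and 7.25, 7.72 and 7.62 in the 30 h animals. The lowest 16 h animal was 1.01 log2 units above the highest of the others, and the 30 h animals were the lowest. Cpt1a was higher than the other groups by 2.19 (SE 0.17), 4.56-fold (adjusted p for standing apart 0.00144). Its 1 other probe set, with means from 6.20 to 6.66, was not called (difference 0.27, adjusted p = 0.114).

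In the list of fasting genes raised by the receptor PPAR alpha, which holds Cpt1a, 3 of 37 probe sets were higher (8.11%, beside 4.24% over all), 1 lower (2.7%, beside 1.32%) and 33 not called, with a median of 0.03. Beside Cpt1a, Bdh1 (0.46, SE 0.11, adjusted p = 0.0291), an enzyme of ketone body metabolism, and Creb3l3 (0.43, SE 0.06, adjusted p = 0.00159), a fasting-induced transcription factor, were higher. Plin2, a coat protein of lipid droplets, was lower by 0.51 (SE 0.12, adjusted p = 0.0332). Acaa2, a thiolase of fatty acid oxidation, stood apart by a dim probe set (0.62, SE 0.07, adjusted p 0.0275), while its bright one was not called, with means of 11.27, 11.29, 10.90 and 10.48 in the order of the groups.

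Gluconeogenesis genes gave 7 of 28 probe sets higher (25%, beside 4.24% over all), of 6 genes, 0 lower and 21 not called, with a median of 0.21 against -0.01 over all probe sets. Ppargc1a, a coactivator that raises gluconeogenesis and mitochondrial genes in fasting and cold, read 6.32, 6.28 and 5.39 at 16 h and 4.60 to 4.95 elsewhere. Animal 3 at 16 h was below the other 2 but above every animal of the other groups. Ppargc1a was higher by 1.26 (SE 0.15, adjusted p for standing apart 0.0214). Its 2 other probe sets were not called. The brightest probe set of the gene was 1 of these, with means of 7.05, 6.99, 7.07 and 6.75 in the order of the groups. Klf15, a fasting-induced factor of amino acid breakdown, was higher by 1.08 (SE 0.17, adjusted p = 0.00363; for standing apart 0.0988). Pc, the carboxylase that opens the pathway, was higher by 0.60 (SE 0.10, adjusted p = 0.00611) and Foxo3 by 0.43 (SE 0.11, adjusted p = 0.0419).

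Genes raised by glucocorticoids gave 6 of 32 probe sets higher (18.8%, beside 4.24% over all) and 1 lower (3.12%, beside 1.32%), with a median of 0.25. Per1 is a member of this list too. Mt2A, a metallothionein, was higher by 2.09 (SE 0.37, adjusted p = 0.00644), with 12.54, 12.50 and 11.63 at 16 h and 8.89 to 11.18 elsewhere. Sds, a serine dehydratase, had the widest difference of the list (2.28, SE 0.47, adjusted p = 0.0162), and Klf9 was higher by 1.31 (SE 0.24, adjusted p = 0.00767). In Sds and Klf9 heart-beating donor 2 (9.74 and 10.36) overlapped the 16 h animals (9.17 to 10.67 and 10.22 to 10.58), and neither gene stood apart. Sds and Klf9 were chosen for this overlap after their values were seen.

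Of 39 probe sets of fat synthesis genes, 7 of 4 genes were lower (17.9%, beside 1.32% over all) and 4 of 2 genes were higher (10.3%, beside 4.24%), with a median of -0.06. Gpam, which starts triglyceride synthesis, was lower by 0.94 (SE 0.14, adjusted p = 0.00261) and missed standing apart (adjusted p = 0.0671). Tkfc was lower by 0.67 (SE 0.10, adjusted p = 0.00236). Scd2 was lower by 2.47 (SE 0.32, adjusted p = 0.00109), but its highest group was 4 h, with a mean of 10.68, and the other means were 7.60 (heart-beating), 5.92 (16 h) and 6.90 (30 h). Thrsp, a lipogenic regulator, was higher by 0.53 in its brightest probe set (SE 0.08, adjusted p = 0.00212), where 30 h was the lowest group. Of 32 cholesterol synthesis probe sets 1 was higher (3.12%, beside 4.24%) and 0 lower.

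Of growth arrest and stress genes 6 of 31 probe sets were higher (19.4%, beside 4.24% over all) and 1 lower (3.23%, beside 1.32%). Gadd45b, a stress-induced growth arrest gene, read 8.22, 8.13 and 7.64 at 16 h and 5.70 to 7.32 elsewhere, the 7.32 in heart-beating donor 2 (difference 1.60, SE 0.25, adjusted p = 0.00364; for standing apart 0.0902). Gadd45a was higher by 0.78 (SE 0.13, adjusted p = 0.00497). Of endoplasmic reticulum stress genes 5 of 32 were higher (15.6%, beside 4.24%) and 0 lower, with Herpud1 at 1.26 (SE 0.18, adjusted p = 0.00213) and Eif2ak3 at 0.56 (SE 0.09, adjusted p = 0.00484).

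Hypoxia genes gave 6 of 40 probe sets higher (15%, beside 4.24% over all) and 0 lower, with a median of -0.01, that of all probe sets. Among the 6 were those of Bnip3l, a mitophagy receptor (0.45, SE 0.08, adjusted p = 0.00596), and Mxi1 (0.42, SE 0.07, adjusted p = 0.00581). Immediate early genes gave 4 of 51 higher (7.84%, beside 4.24%) and 6 lower (11.8%, beside 1.32%), with Zfp36 at 0.90 (SE 0.12, adjusted p = 0.00109), Junb at 0.93 (SE 0.16, adjusted p = 0.00605) and Ier5 at -0.59 (SE 0.12, adjusted p = 0.0149). Of 25 heat shock probe sets 0 were called by limma, with 6 higher and 3 lower at an unadjusted p under 0.05. Of 51 probe sets of oxidative phosphorylation 1 was lower, of Uqcrc2 (1.96%, beside 1.32%), and 0 were higher. Of 12 cold-induced probe sets 1 was higher, that of Ppargc1a (8.33%, beside 4.24%). Tubulins and actins had 2 of 21 lower (9.52%, beside 1.32%), with Tubb2a at -1.56 (SE 0.20, adjusted p = 0.00106; for standing apart 0.0671). Of 23 probe sets of steroid-metabolizing enzymes 2 were higher (8.7%, beside 4.24%), Hsd17b2 and Akr1c14 (0.42, SE 0.09, adjusted p = 0.0174).

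Other genes above every other group included receptors, kinases and carriers. Gpr146, a G protein-coupled receptor, read 8.23, 7.73 and 7.86 at 16 h and 6.16 to 6.55 elsewhere, a difference of 1.57 (SE 0.10, adjusted p for standing apart 0.000109). Its second probe set read 8.09, 7.96 and 7.95 against 6.84 to 7.28, a difference of 0.95 (SE 0.07, adjusted p 0.000835). The 16 h animals lay outside the others by both. Bcar3, an adaptor of integrin signalling, was higher by 1.26 (SE 0.09, adjusted p 0.000835). Pim3, a serine/threonine kinase, was higher by 1.21 (SE 0.14, adjusted p 0.0266).

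Abcc2, the canalicular exporter of bilirubin conjugates, read 11.28, 11.14 and 11.45 at 16 h, 10.63, 10.41 and 10.63 among heart-beating donors, 9.97, 10.25 and 9.97 in the 4 h animals and 9.99, 10.41 and 10.10 in the 30 h animals. Its 16 h animals were the highest, and heart-beating donors came next by mean. It was higher by 1.03 (SE 0.10, adjusted p for standing apart 0.0275). Baiap2l1, which bends membranes at actin, was higher by 1.20 (SE 0.14, adjusted p 0.0419), and Elovl2, an elongase of polyunsaturated fatty acids, by 1.18 (SE 0.12, adjusted p 0.0349).

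Ccnd1, the cyclin that drives entry into the cell cycle, read 9.26, 9.51 and 9.44 at 16 h, 8.18, 7.91 and 8.16 among heart-beating donors, 7.47, 7.63 and 7.23 in the 4 h animals and 8.47, 8.88 and 8.14 in the 30 h animals. Its 30 h animals were the nearest. The difference was 1.40 (SE 0.13), and it stood apart with an adjusted p of 0.0419. Both other probe sets of Ccnd1 were higher than the mean of the other groups, by 0.98 and 1.54, but 1 of them overlapped 30 h, with means of 9.03 at 16 h and 8.75 at 30 h.

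The remaining 15 genes above every other group lie below the 15 largest rises and are given as a range. They differed from the mean of the other groups by 0.54 to 1.02: Osbpl11, Rasd2, Kng2l1, Cobll1, Wipi1, Rab30, Tbcel, Jade1, Cep152, Plpp3, Per1, Dcaf6, Acaa2, Tns2 and Evi5. By the probe sets that stood apart, Tbcel, Jade1 and Kng2l1 were also higher at 30 h than in heart-beating donors, by 0.54 (adjusted p = 0.000481), 0.39 (adjusted p = 0.00629) and 0.35 (adjusted p = 0.00973), and their 16 h values lay farther out. The brightest probe set of Kng2l1 went the other way at 30 h, 0.56 below heart-beating donors (adjusted p = 0.00479 by limma).

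The genes below every other group, beside Npas2 and Bmal1, were Lgalsl, Chka, Clpx and Cd14. Lgalsl, a galectin-like protein, read 6.93, 6.97 and 6.66 at 16 h, 8.45, 8.44 and 8.37 among heart-beating donors, 8.49, 8.40 and 8.29 in the 4 h animals and 9.02, 9.21 and 8.91 in the 30 h animals. No group overlapped 16 h, and 30 h was the highest. It was lower by 1.77 (SE 0.08), 3.4-fold, with an adjusted p for standing apart of 3.36e-06. Its other probe set, at means from 3.77 to 4.89, was lower by 1.00 (SE 0.08, adjusted p 0.00124).

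Chka, the choline kinase that starts phosphatidylcholine synthesis, read 6.0, 6.65 and 6.86 at 16 h and 7.76 to 8.53 elsewhere. The 16 h animals differed among themselves by less than their distance to the others. Chka was lower by 1.53 (SE 0.17, adjusted p for standing apart 0.0227), and it was the 1 probe set of 20 called in the list of phosphatidylcholine synthesis (5%, beside 1.32% lower over all). Clpx, the unfoldase of a mitochondrial protease, read 9.37, 9.46 and 9.23 at 16 h, 10.49, 10.29 and 10.22 among heart-beating donors, 10.28, 10.19 and 10.35 in the 4 h animals and 9.77, 10.03 and 9.88 in the 30 h animals. It was lower by 0.81 (SE 0.08, adjusted p 0.0369), and 30 h was below heart-beating donors by 0.44 (adjusted p = 0.00425).

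Cd14, a co-receptor for bacterial lipopolysaccharide on macrophages, read 9.30, 9.27 and 9.0 at 16 h, 9.82, 9.98 and 9.72 among heart-beating donors, 10.08, 10.05 and 10.16 in the 4 h animals and 9.76, 9.96 and 9.78 in the 30 h animals. Its 30 h and heart-beating animals overlapped, and 16 h lay below both. It was lower by 0.73 (SE 0.08, adjusted p for standing apart 0.0163). Of the 17 probe sets of macrophage markers, of which that of Cd14 is 1, 6 were lower with Cd14 among them (35.3%, beside 1.32% over all), 0 higher (beside 4.24%) and 11 not called against the mean of the other groups. A difference above 0 was seen in 0 of the 17, beside 9527 of all 20826 probe sets.

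The macrophage list as a whole did not share the shape of Cd14. On the log2 scale its summed signal was 12.39 to 12.55 at 16 h and 12.29 to 12.49 at 30 h, so these overlapped, while heart-beating donors had 12.90 to 12.97 and the 4 h animals 12.90 to 13.21. The median difference of its probe sets was -0.53 from heart-beating donors, -0.62 from 4 h and 0.19 from 30 h. Cybb, the oxidase subunit of phagocytes, was lower by 0.44 (SE 0.07, adjusted p = 0.00511), with 30 h nearest, at 0.21 above 16 h. In bulk samples fewer cells of a type and less RNA per cell cannot be told apart, and the part of macrophage content in the Cd14 difference was not tested.

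Markers of other cells were read beside these results. The summed hepatocyte markers were the brightest list, with 17.25 to 17.28 at 16 h, and 2 of 22 probe sets were higher at 16 h (9.09%, beside 4.24%). The other groups had 17.25 to 17.29 (heart-beating), 17.23 to 17.26 (4 h) and 17.10 to 17.20 (30 h). Endothelial markers were at 12.58 to 12.60 at 16 h, 12.08 to 12.20 (heart-beating), 12.26 to 12.43 (4 h) and at most 12.53 at 30 h, with 3 of 20 higher, 15% beside 4.24% (Stab2 0.61, Lyve1 0.52 and Fcgr2b 0.50) and 0 apart. Stellate cell markers had 2 of 20 higher (10%, beside 4.24%) and 1 lower (5%, beside 1.32%), with sums of 12.43 to 12.56 at 16 h, 11.88 to 12.23 (heart-beating), 11.93 to 12.10 (4 h) and 12.41 to 12.80 (30 h).

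Red cell markers summed to 13.83 to 14.11 at 16 h, against 12.21 to 12.50 (heart-beating), 12.33 to 13.98 (4 h) and 13.78 to 14.36 (30 h). By limma 0 of 12 were called against the mean of the other groups, with 3 higher and 1 lower at an unadjusted p under 0.05. Of lymphocyte (0 of 18), neutrophil (0 of 9) and bile duct markers (0 of 9) limma called none either, with 4, 3 and 1 lower and 0 higher at an unadjusted p under 0.05. The part of the endothelial, stellate and red cell signals in the differences of named genes was not tested.

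Probe sets that were called against the mean of the other groups while the 16 h mean lay between other groups show the contrast. Thrsp was higher by 0.70 in its dimmest called probe set, with means of 9.95, 9.93, 9.91 and 7.76 in the order of the groups: the 3 earlier means lay close together and 30 h was low. Lect2 (0.59), a secreted hepatocyte protein, and Slco1b2 (0.53), an uptake transporter for organic anions, also had 30 h as the lowest group. Ccl6 (-0.81), a chemokine, read 10.63, 10.49, 9.03 and 8.43. Its mean was lowest at 30 h, but 16 h and 30 h were not called different (0.60, adjusted p = 0.0706 by limma). Rps16 (-0.62), a ribosomal protein, and Cd5l (-0.56), of macrophages, had 16 h and 30 h close together. Adjusted p for these 6 lay between 0.00491 and 0.0342, and none stood apart.

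Just beyond the threshold for standing apart were Cux2 (adjusted p 0.0535), Stag2 (0.0542), Arhgef3 (0.0565) and Tcf7l2 (0.0592), all higher at 16 h, and Tmem252 (0.0592), lower. Just inside were Evi5 (0.043), Ccnd1 and Baiap2l1 (0.0419 each). These were chosen by their place in the order.

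For the 36 genes, 26 further probe sets of 16 genes were on the arrays. Against the mean of the other groups 9 of the 26 were called in the direction of the gene's call and 0 in the opposite one. Over all probe sets 4.24% were called higher and 1.32% lower. The genes had been chosen by their 16 h difference on these same arrays, so the 26 are not independent of that choice. Rab30 was higher by 1.54 in its other probe set, with 8.26 in heart-beating donor 2 against 8.45 to 8.72 at 16 h. Evi5 and Plpp3 each had 2 others higher, and 1 of 4 others of Dcaf6 was higher. The 2 other probe sets of Kng2l1, both brighter, were not called against that mean, and the brightest was lower at 30 h than in heart-beating donors.

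The calls rested on the 3 animals to differing degrees. In 15 probe sets standing apart held without any 1 of the 12 arrays: those of Dbp, Nr1d1, Hsd17b2, Cpt1a, Per3, Bcar3, Tef, Kng2l1 and Npas2, and both of Nr1d2, Gpr146 and Lgalsl. The other 24 lost their call without 2 to 10 of the arrays, 23 of them without 16 h animal 1, 23 without 16 h animal 2 and 10 without 16 h animal 3. Heart-beating donor 3 ended 19, donor 1 ended 14 and donor 2 ended 2; 4 h animals 1, 2 and 3 ended 12, 15 and 8, and 30 h animals 1, 2 and 3 ended 7, 10 and 11. The count of probe sets apart was 16 without 16 h animal 1 or 2, 20 without heart-beating donor 3 and 25 without 4 h animal 2. The difference to the nearest group kept its sign in each case. For Bmal1, lost in 10, it ran from -0.83 to -0.64, for Ccnd1, lost in 10, from 0.73 to 0.98, for Ppargc1a, lost in 5, from 1.01 to 1.17, and for Chka, lost in 5, from -1.42 to -1.10. For Per1, lost in 6, it ran from 0.55 to 0.66, and for Cd14, lost in 3, from -0.68 to -0.58. Of the 3 animals at 16 h, animal 1 was farthest from the other groups in 19 of the 39, animal 2 in 9 and animal 3 in 11.

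**Figure D5:**
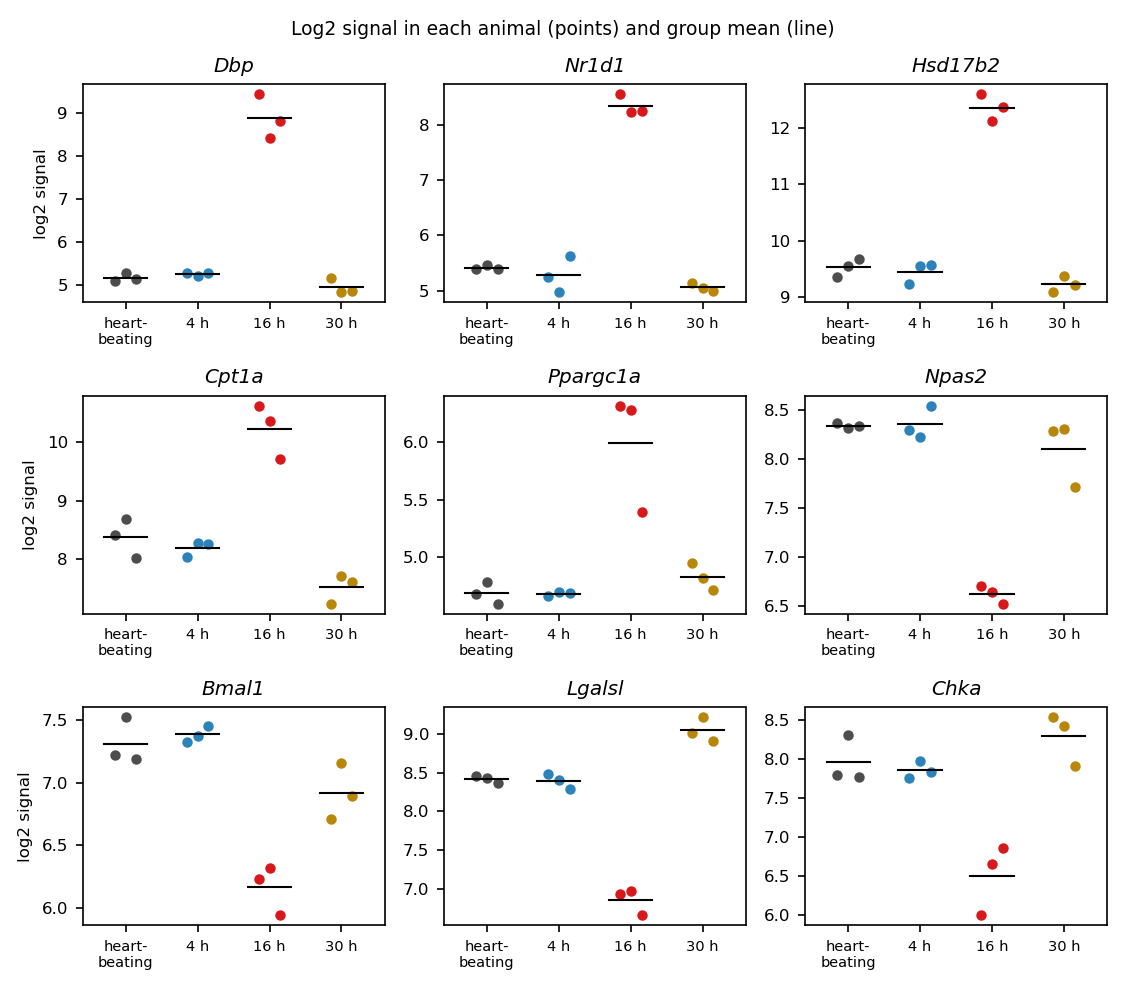
Log2 signal of 9 genes that stood apart at 16 h, in each of the 12 animals (points) with the group mean (line), each panel with its own axis. The 16 h points lie above all others in Dbp, Nr1d1, Hsd17b2, Cpt1a and Ppargc1a and below all others in Npas2, Bmal1, Lgalsl and Chka.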

How the data were processed

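For 12 Affymetrix rat arrays the authors deposited 1 log2 signal for each probe set, made with RMA and used with limma per the submitters' processing notes; no version or setting is named in them. RMA sets each array relative to the others, so a loss that touched all transcripts alike would not show. Of 31099 probe sets, 57 were controls, 20826 carried 1 gene symbol, 436 several and 9780 none. Group means were fitted with limma 3.58.1 in R 4.3.3 (8 residual and 4.94 prior degrees of freedom), without a filter, and p-values were adjusted by Benjamini-Hochberg over all 20826.

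Members, lists and alternatives were chosen with earlier results of these data known. The rule for names took the 15 largest rises and 15 largest falls that stood apart (6 genes fell), up to 4 members of each list by the p for standing apart, and 3 rises and 3 falls whose 16 h mean lay between other groups. Names beyond this rule were also given. Among them were further clock genes such as Hlf and Per2, and Sds and Klf9, chosen after their values were seen. The labels name no pairing of animals by replicate number, and none was used in the main fit. Residual correlations of arrays with the same number ran from -0.27 to 0.11, and of others from -0.26 to 0.23. These overlapping ranges cannot tell whether animals with the same number were handled together. Alternatives changed the normalization, the probe sets used, the moderation and weights, the covariate, the block, the groups in the fit, and left out each array. The fit was tested on simulated data. The p-values measure the spread between 3 animals of each group.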

Additional observations from a re-analysis of the deposited data

Results flagged for a closer look

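In 4 of the 39 probe sets that stood apart, 16 h and 30 h lay on opposite sides of heart-beating donors, and each of the 3 differences passed limma's adjusted threshold. The share of this pattern over all probe sets was not counted. A looser count gave 2146 of 20826. It needed a called difference of 30 h from heart-beating donors. The sign had to be opposite to that of 16 h against the mean of the other groups, called or not. That mean holds the 30 h group, so a change at 30 h alone can meet the looser count. The second Nr1d2 probe set was 2.42 above heart-beating donors at 16 h and 0.52 below at 30 h, so that 16 h exceeded 30 h by 2.94 (adjusted p = 3.18e-07). Cpt1a was 1.85 above and 0.84 below, a difference of 2.69 between the times (adjusted p = 2.15e-05). Abcc2 was 0.73 above and 0.39 below, a difference of 1.12 (adjusted p = 0.000192). Lgalsl, by its brighter probe set, fell by 1.57 at 16 h and was 0.63 above at 30 h, a difference of -2.19 (adjusted p = 5.42e-08). The brighter probe set of Nr1d2 was not called between 30 h and heart-beating donors (difference -0.20, adjusted p = 0.712 by limma).

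Among 10216 probe sets that had no gene symbol or more than 1, and that entered no comparison above, 5 stood apart at 16 h (0.0489%). Of these 2 were higher and 3 lower, and the largest distance to the nearest group was 1.98 in size. They are unnamed here.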

How the results depend on the processing

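The 39 probe sets that stood apart kept their direction in each of the 12 settings that held them and in 12 omissions of 1 array, and 5 kept their call in all of these. Filters of probe sets dropped some of the 39 from a setting. Of the 5, Dbp and Nr1d1 were held in 11 settings and the second Nr1d2 probe set in 10. The count standing apart was 26 to 45 under the other normalizations, filters, summaries and moderation, 59 with array weights, 5 with a Gapdh covariate (its 3' to 5' difference), 94 without the heart-beating arrays and 1134 without the 30 h arrays, with all 39 among them, and it ran from 16 to 57 when 1 array was left out: 16 without 16 h animal 1 or 2, 20 without heart-beating donor 3 and 25 without 4 h animal 2. The count called against the mean of the other groups (1158) was 732 with the mean of each gene's probe sets, 2032 with array weights, 2219 with the Gapdh covariate, 433 without the 4 h arrays, 3498 without the 30 h arrays and 254 with the 9 other arrays as 1 group, and from 255 to 1778 with 1 array left out. Fewer arrays or genes entered several of these, and otherwise the cause was not tested. The share of higher among these calls, 76.3%, was 63.0% after a further quantile normalization and 61.1% without the 30 h arrays. With the Gapdh covariate limma called 0 probe sets apart at 30 h (1505 at an unadjusted p under 0.05), against 1162. The labels name no pairing by replicate number. With a replicate block 887 probe sets were called against the mean of the other groups and 34 stood apart. The Actb 3' to 5' difference between 16 h and the other arrays ran from -0.10 to 0.23 with 1 array left out, with -0.01 without 4 h animal 2.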
